A study of Homo sapiens with 6 samples.

Results

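The genes described here are 44 that build and control the actin cytoskeleton, its myosin motors and the focal adhesions that anchor it. They were taken by name from the 58735 genes of the deposited table, not by a cut on their values. Earlier results of these data were known when the genes were chosen. All 44 were found once and all 44 had a mean of at least 1 FPKM (fragments per kilobase of gene, divided by a scaling total of the library that the authors set at 0.958 to 1.02 times its recovered reads), the minimum for testing, which left 10674 genes in all. ARHGAP5, the lowest, lay just inside that minimum, with 153 to 238 reads per library after si-circ_0000839 and 200 to 275 in NC, and none of the 44 lay outside it. The RNA came from TPC1 cells, a cell line established from a papillary thyroid carcinoma, 60 h after transfection. In 3 libraries the cells had received si-circ_0000839, an siRNA that silences the circular RNA hsa_circ_0000839, and in the other 3 a negative-control siRNA (NC). All 6 come from the same cell line, and the labels do not say whether libraries of a group were separate cultures, so the p-values rest on a spread that may be technical. No row was matched to the circular RNA, and its depletion was not checked here. In bulk RNA, a difference in every cell and one in part of the cells cannot be told apart.

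Actin filaments grow by the addition of monomers, with profilin and thymosins holding the monomer pool, formins extending straight filaments and the Arp2/3 complex starting branches. RhoA, switched on by exchange factors and off by GTPase-activating proteins, acts through formins and through the kinases ROCK1 and ROCK2, which raise myosin II activity and, through LIM kinases, restrain the severing protein cofilin. Bundled filaments pull on focal adhesions, where talin, vinculin, paxillin and zyxin join them to integrins, and free actin monomer holds back the cofactors of the transcription factor SRF, which drives many of these genes.

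The libraries held 18399558 to 19334633 reads assigned to genes, as recovered from the FPKM steps, and the 44 genes together took 3.64% to 3.86% of them. Of the thyroid markers, PAX8 averaged 96.3 FPKM after si-circ_0000839 and 95.8 in NC, and FOXE1 11.6 and 10.9, while no library held a read (0) of NKX2-1, SLC5A5 or TSHR. Keratin genes KRT7, KRT8 and KRT18 averaged between 95.1 and 208 FPKM per group, whereas EPCAM averaged 0.815 FPKM after si-circ_0000839 and 0.861 in NC, KRT19 0.0523 and 0.0378, and CDH1 had 0 reads. Of 8 smooth muscle markers, SMTN averaged 19.1 FPKM after si-circ_0000839 and 17.8 in NC, ACTA2 4.0 and 3.70, and CNN1 1.05 and 1.26. The other 5, MYH11, DES, LMOD1, ACTG2 and MYOCD, averaged at most 0.121 FPKM in either group. Of the leukocyte markers, PTPRC and CD3E had 0 reads and the highest, CORO1A, averaged 0.671 FPKM after si-circ_0000839 and 0.700 in NC.

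No gene of the 44 passed an adjusted p of 0.05 in either direction after si-circ_0000839. With limma and Benjamini-Hochberg adjustment over all tested genes, the count was 0 of 44, against 0.384% of all genes tested (14 higher and 27 lower; 32 higher and 24 lower after rescaling to TPM). At an unadjusted p under 0.05 there were 5 of the 44, against 12.6% of all tested genes. Of these, VCL, TAGLN and ACTN1 had higher means and CALD1 and MYH10 lower means, against 6.31% of all tested genes in each direction. By limma's voom on the recovered reads the count past the adjusted threshold was also 0 of 44, against 0.787% of all genes tested, with 14 of the 44 at an unadjusted p under 0.05, against 13.8% of all genes. Leaving out NC replicate 3 left 0 of the 44 at an unadjusted p under 0.05, against 9.33% of all genes, and leaving out NC replicate 2 gave 9, against 16.3%.

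The changes were small. Fold changes of mean FPKM ran between 0.765 for ARHGAP5 and 1.15 for TAGLN. Log2 changes are given as si-circ_0000839 minus NC in log2(FPKM + 1), and the added 1 makes those of low genes smaller than their folds. They ran between -0.32 and 0.20. Their median was 0.01, beside 0.0057 over all tested genes, and -0.0055 with a trend on GC content and length removed from each library. The median size regardless of sign was 0.0851, beside 0.0817 over all tested genes. Of the 44, 25 were above 0 and 19 below, 56.8% above 0 against 51.8% of all tested genes, and with that trend removed 21 of the 44 were above 0. In 11 of 44 the libraries of the groups did not overlap, against 18.1% of all tested genes. In 9 of these si-circ_0000839 was higher, against 10.6% of all tested genes, and in 2 it was lower, against 7.55%. For every one of the 44 the 95% interval of the log2 change lay within 1.5-fold either way (0.585 on the log2 scale), as it did for 96.6% of all tested genes. On the recovered reads with voom this held for 40 of 44, and not for CALD1, ROCK1, ROCK2 and ARHGAP5.

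**Figure D1:**
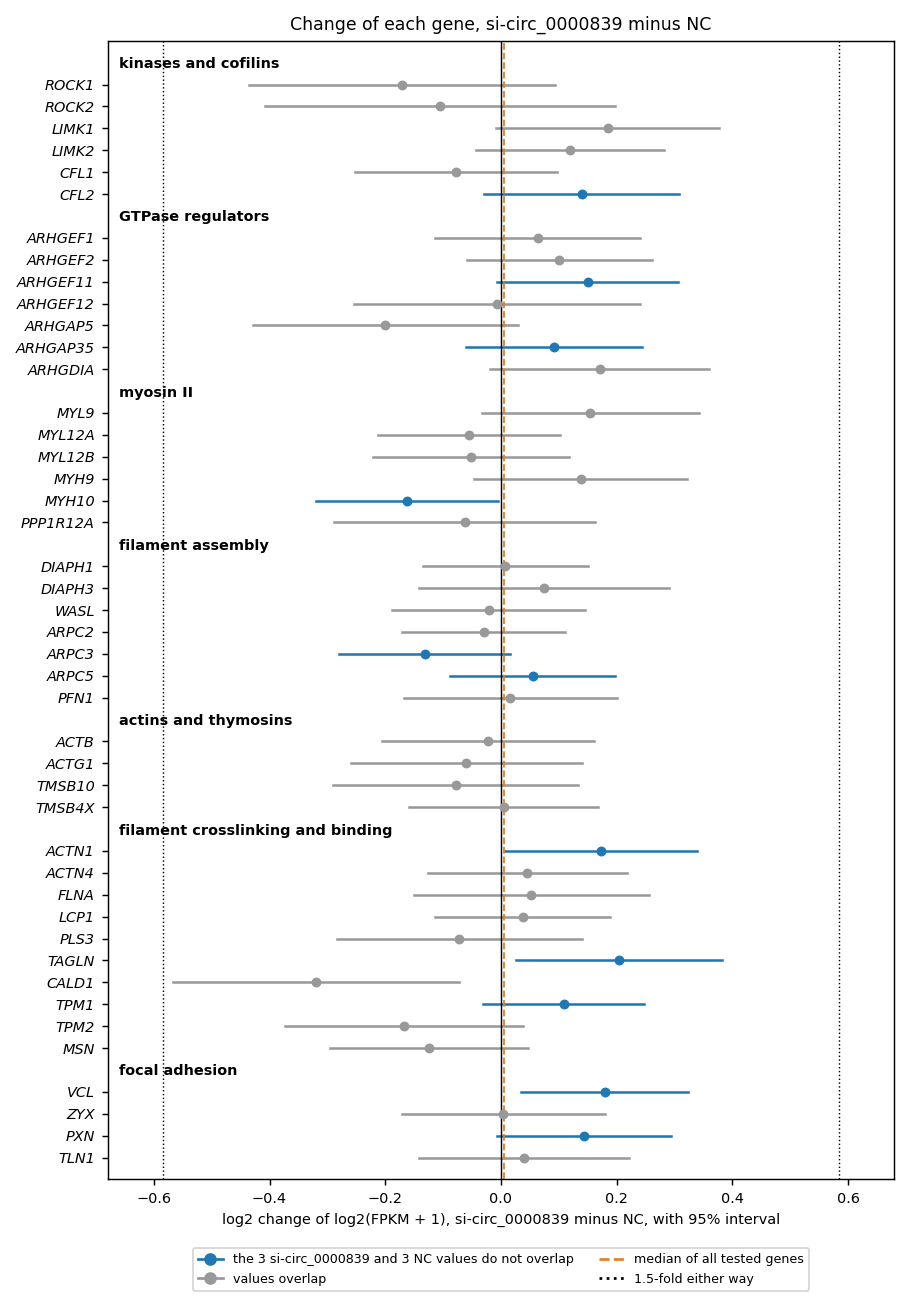
Log2 change of each of the 44 genes on the scale of log2(FPKM + 1), si-circ_0000839 minus NC (x axis), with the 95% interval from limma as a line, genes listed by role (y axis); blue marks the 11 genes whose 3 si-circ_0000839 and 3 NC values do not overlap. The points lie between -0.32 and 0.20, and all 44 intervals stay inside the dotted lines at 1.5-fold.

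Promoters are shown for the genes in which a CArG box, the motif bound by SRF, was found, to set that shared sequence beside the genes' values. RefSeq windows of 300 bases (250 before to 50 after a start, GRCh38.p14) were matched by symbol for 40 of the 44, all but MYL9, ACTB, ARHGAP35 and TAGLN. The box is 10 bases, a pair of C, then 6 bases of A or T, then a pair of G. A match on either strand is also a match on the other. It was found in 4 of the 40, 10% of them, against 1.55% of the 7919 tested genes with a window. Genes can have several windows, and counted by window it was found in 4 of 71 windows of these genes, 5.63%, against 1.29% of all 35116. The sequences below are 90 bases each, upstream of the start, 5′ to 3′ on the minus strand, with the box in capitals. They lie at chr17:81512844-81512933 for ACTG1, chr14:68977688-68977777 for ACTN1 (1 of 4 starts), chrX:154374679-154374768 for FLNA and chr2:11345461-11345550 for ROCK2 (1 of 2 starts).
ACTG1: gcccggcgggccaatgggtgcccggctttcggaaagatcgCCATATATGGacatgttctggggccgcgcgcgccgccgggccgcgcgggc
ACTN1: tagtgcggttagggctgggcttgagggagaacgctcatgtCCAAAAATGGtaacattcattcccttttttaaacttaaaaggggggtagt
FLNA: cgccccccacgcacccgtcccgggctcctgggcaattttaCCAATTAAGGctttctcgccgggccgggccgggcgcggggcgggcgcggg
ROCK2: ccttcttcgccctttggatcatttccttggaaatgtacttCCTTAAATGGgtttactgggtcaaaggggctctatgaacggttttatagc

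The box began 94 bases upstream of the start in ACTG1 and FLNA, 171 in ACTN1 and 73 in ROCK2. Log2 changes of these 4 genes were 0.17 for ACTN1, 0.05 for FLNA, -0.06 for ACTG1 and -0.11 for ROCK2, none past the adjusted threshold. The limma intervals of FLNA (-0.15 to 0.26), ACTG1 (-0.26 to 0.14) and ROCK2 (-0.41 to 0.20) covered 0. The signs of these changes were therefore not settled, and a shared direction was not tested. A second motif, GGAATG on either strand, the core bound by TEAD factors, was present in 11 of the 40 genes with a window, 27.5%, and in 14.9% of tested genes with a window. Counted by window it was present in 13 of 71 windows of these genes, 18.3%, and in 4928 of all 35116 windows. The motifs can share letters, but overlapped in 0 of the windows of these genes. The 11 genes included VCL, PXN and ACTN1 with positive log2 changes and CALD1, MYH10 and ROCK2 with negative ones. These matches describe letters in the window, not binding.

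Among focal adhesion genes, all 4 had log2 changes above 0 and none passed. VCL (chr10:73995193-74121363, plus strand) encodes vinculin, which reinforces the link between talin and actin. It stood at 25.6, 24.8 and 23.9 FPKM after si-circ_0000839, against 22.4, 21.3 and 21.7 in NC. Every si-circ_0000839 library was above every NC library. Coordinates here and below are those of the deposited table, which match GENCODE 29 (GRCh38). The log2 change was 0.18 (95% interval 0.04 to 0.32), with a limma adjusted p of 0.296. PXN, the adaptor paxillin, was at 30.5, 27.6 and 28.2 FPKM after si-circ_0000839, against 26.0, 26.6 and 25.3 in NC. These groups did not overlap either, with a limma adjusted p of 0.415. ZYX (zyxin) and TLN1 (talin, which activates integrins) had log2 changes of 0.0041 and 0.04, and both changed sign in some alternatives. Of VCL exon bases, 11.1% are shared with other annotated genes, and the strand setting of the counting is not given in the sources used here.

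Of the 10 genes that crosslink or coat filaments, 6 had log2 changes above 0 and none passed. CALD1 (chr7:134744252-134970728, plus strand) encodes caldesmon, which binds actin, tropomyosin and myosin. Its log2 change was the largest in size among the 44, with 10.1, 12.3 and 11.2 FPKM after si-circ_0000839, against 15.6, 11.7 and 15.6 in NC. NC replicate 2 lay within the si-circ_0000839 range, so the groups overlapped. The log2 change was -0.32 (95% interval -0.57 to -0.07), with a limma adjusted p of 0.281. Leaving out each library in turn, it ran between -0.45 and -0.26, with a limma adjusted p between 0.0759, without NC replicate 2, and 0.573.

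TAGLN (chr11:117199321-117204782, plus strand), which encodes the actin-bundling protein transgelin, was at 57.0, 55.9 and 55.6 FPKM after si-circ_0000839, against 46.5, 54.6 and 45.1 in NC. The groups did not overlap, although NC replicate 2 came close to the si-circ_0000839 libraries. Its log2 change was 0.20 (95% interval 0.03 to 0.38), with a limma adjusted p of 0.330. ACTN1 (chr14:68874143-68979440, minus strand), the crosslinker alpha-actinin-1, was at 76.7, 66.1 and 66.7 FPKM after si-circ_0000839, against 61.4, 61.0 and 62.7 in NC. All si-circ_0000839 libraries were above all NC libraries, and replicate 1 was the highest. The log2 change was 0.17 (95% interval 0.01 to 0.34), with a limma adjusted p of 0.374. Its close relative ACTN4 was at 235, 200 and 208 FPKM after si-circ_0000839, against 206, 211 and 205 in NC, and these overlapped. The longest open reading frames of ACTN1 and ACTN4 are 82.1% identical. TPM1, a tropomyosin that lies along the filament, averaged 50.6 ± 0.908 FPKM after si-circ_0000839 and 46.8 ± 1.06 in NC (SD, n = 3 each) without overlap, whereas TPM2 averaged 67.8 ± 5.68 and 76.4 ± 8.72 with overlap. FLNA (filamin A, an orthogonal crosslinker), LCP1 and PLS3 (plastins, which bundle filaments) and MSN (moesin, a membrane linker) had log2 changes of 0.05, 0.04, -0.07 and -0.12. LCP1, best known as the plastin of leukocytes, averaged 216 FPKM after si-circ_0000839 and 210 in NC, in libraries where the leukocyte markers above were at or near 0.

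Of the 6 myosin II genes, 2 had log2 changes above 0 and none passed. MYH10 (chr17:8474205-8630761, minus strand), the heavy chain of non-muscle myosin IIB, was at 6.55, 6.97 and 6.94 FPKM after si-circ_0000839, against 7.91, 7.34 and 8.01 in NC. Every si-circ_0000839 library was below every NC library. The log2 change was -0.16, with a limma adjusted p of 0.381. MYH9, the heavy chain of myosin IIA and the more abundant, averaged 208 ± 18.9 FPKM after si-circ_0000839 and 189 ± 10.2 in NC (SD, n = 3 each), with overlap. The regulatory light chain MYL9 averaged 45.9 ± 3.72 FPKM after si-circ_0000839 and 41.1 ± 3.46 in NC, with overlap. MYL12A and MYL12B, the other light chains of this kind, had log2 changes of -0.06 and -0.05. Their open reading frames are 95.7% identical, so the division of reads between them is uncertain. PPP1R12A, the targeting subunit of myosin phosphatase, had a log2 change of -0.06.

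Of the 6 kinase and cofilin genes, 3 had log2 changes above 0, and of the 7 GTPase regulators 5 did, with none past the threshold in either group. LIMK1, which phosphorylates cofilin, was at 54.8, 44.9 and 49.6 FPKM after si-circ_0000839, against 42.5, 47.3 and 41.0 in NC. NC replicate 2 exceeded si-circ_0000839 replicate 2, so the groups overlapped, and the limma adjusted p was 0.415. ROCK1 and ROCK2 were low, at 1.07, 1.70 and 1.06 FPKM for ROCK1 after si-circ_0000839, against 1.60, 1.34 and 1.70 in NC. The values of each gene overlapped between groups. CFL2, the muscle cofilin, was at 5.10, 5.83 and 5.74 FPKM after si-circ_0000839, against 4.99, 5.06 and 4.80 in NC, without overlap. The more abundant CFL1 averaged 236 ± 12.7 FPKM after si-circ_0000839 and 249 ± 17.7 in NC, with overlap. Among the GTPase regulators, the exchange factor ARHGEF11 was at 7.36, 7.36 and 6.87 FPKM after si-circ_0000839, against 6.66, 6.30 and 6.20 in NC, without overlap and with a limma adjusted p of 0.415. ARHGAP35, a GTPase-activating protein, also did not overlap, at 10.4 ± 0.276 FPKM after si-circ_0000839 and 9.73 ± 0.440 in NC. The related ARHGAP5 had a log2 change of -0.20 with overlap, and 36.0% of its exon bases are shared with other genes. ARHGDIA, which holds small GTPases in the cytosol, averaged 174 ± 17.7 FPKM after si-circ_0000839 and 154 ± 7.72 in NC, with overlap.

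Of the 7 filament assembly genes, 4 had log2 changes above 0 and none passed. ARPC3, an Arp2/3 subunit, was at 60.0, 64.4 and 64.6 FPKM after si-circ_0000839, against 70.3, 70.4 and 66.6 in NC. All si-circ_0000839 libraries were below all NC libraries, with a log2 change of -0.13 and a limma adjusted p of 0.452. A second subunit, ARPC5, lay the other way, at 22.7 ± 0.252 FPKM after si-circ_0000839 and 21.8 ± 0.780 in NC, also without overlap. A further subunit, ARPC2, averaged 71.1 ± 1.69 FPKM after si-circ_0000839 and 72.6 ± 1.53 in NC, with overlap. The formins DIAPH1 and DIAPH3 and the Arp2/3 activator WASL had log2 changes of 0.0076, 0.07 and -0.02.

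The actins and thymosins, with profilin, hold the 5 highest levels of the 44 by the mean of the 6 libraries, and none of these 5 separated the groups. TMSB10, a monomer-binding thymosin, was at 5779, 5581 and 5806 FPKM after si-circ_0000839, against 5689, 6593 and 5879 in NC. NC replicate 2 was the highest. ACTB, the beta-actin gene often used as a reference, was at 2024, 1881 and 1941 FPKM after si-circ_0000839, against 1964, 2080 and 1898 in NC. The groups overlapped, with a log2 change of -0.02 (95% interval -0.21 to 0.16) that was above 0 after TPM or quantile scaling. ACTG1, gamma-actin, was at 1858, 1635 and 1699 FPKM after si-circ_0000839, against 1739, 1949 and 1728 in NC. The open reading frames of ACTB and ACTG1 are 91.3% identical, so reads shared between them are uncertain. PFN1 was at 938, 809 and 874 FPKM after si-circ_0000839, against 833, 898 and 857 in NC. TMSB4X, the second thymosin, was at 564, 596 and 579 FPKM after si-circ_0000839, against 559, 568 and 607 in NC. These values also overlapped. FLNA came close to TMSB4X, at 646, 523 and 573 FPKM after si-circ_0000839, against 552, 593 and 531 in NC, and was above it in si-circ_0000839 replicate 1 and NC replicate 2.

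**Figure D2:**
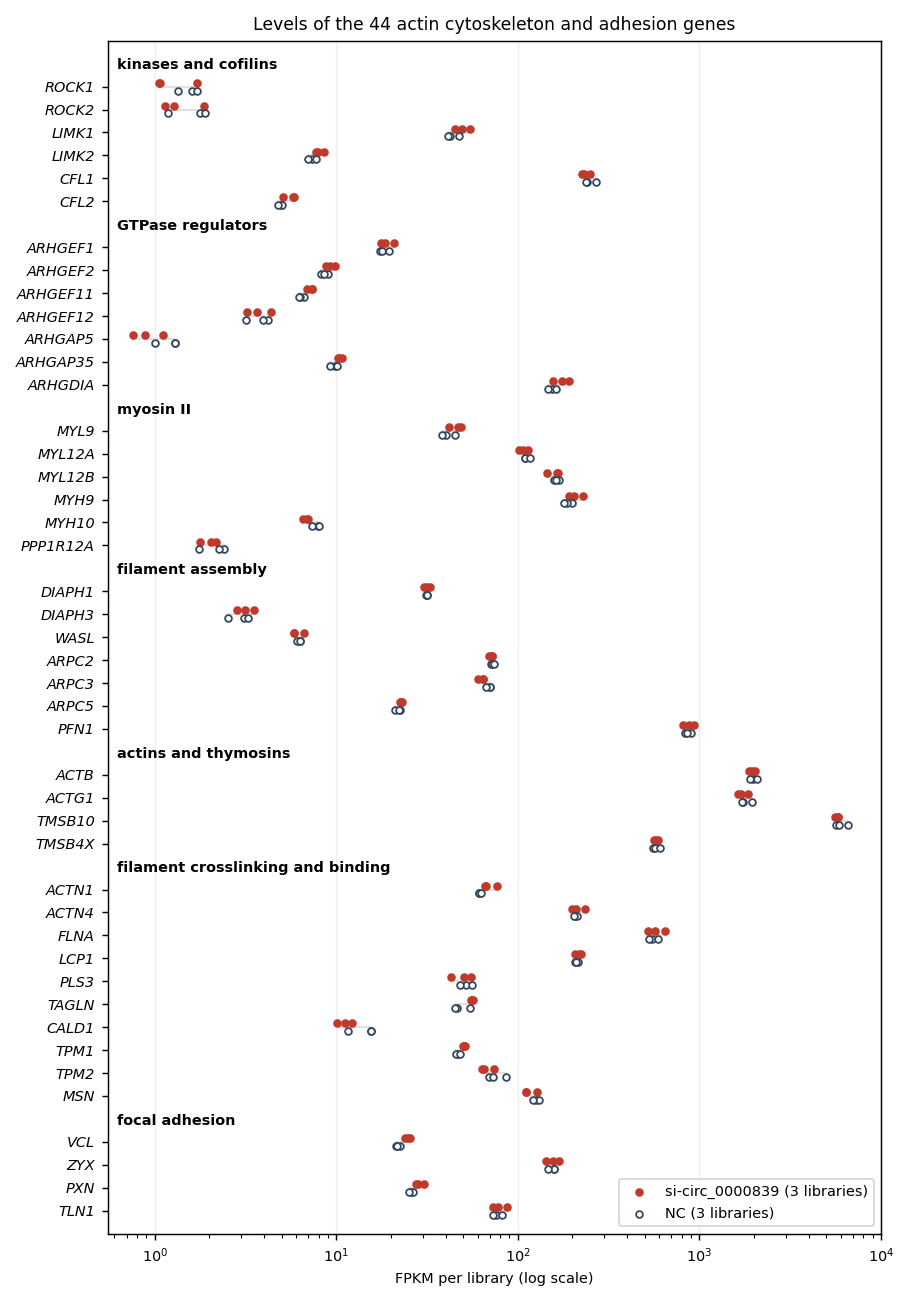
FPKM of each of the 44 genes in every library on a log axis, filled points for the 3 si-circ_0000839 libraries and open points for the 3 NC libraries, genes listed by role. Levels run from about 1 FPKM for ARHGAP5, ROCK1 and ROCK2 to at least 5581 for TMSB10, and the folds between group means stay between 0.765 and 1.15.

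Levels were also taken as a share of the FPKM of the gene family, over 12 families and 38 genes that were chosen after values had been seen. Shares within a family add to 100%, so the members of a family are not independent, and 3 libraries against 3 cannot give an exact p under 0.1. Alpha-actinin-1 made up 24.6% ± 0.324 of alpha-actinin FPKM after si-circ_0000839 and 22.9% ± 0.520 in NC (SD, n = 3 each). Among tropomyosins, TPM1 made up 16.4% ± 0.141 after si-circ_0000839 and 14.6% ± 0.441 in NC. The MYH10 share of non-muscle myosin II heavy chains was 3.19% ± 0.371 after si-circ_0000839 and 3.95% ± 0.273 in NC. For these 3 genes the shares of the groups did not overlap. The beta-actin share of actin FPKM overlapped, at 52.9% ± 0.741 after si-circ_0000839 and 52.3% ± 0.702 in NC. Shares of 10 of the 38 genes did not overlap between groups, 7 of them among the 24 that belong to the 44. No such share was computed over other families, so these counts have no background and nothing is read from them.

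**Figure D3:**
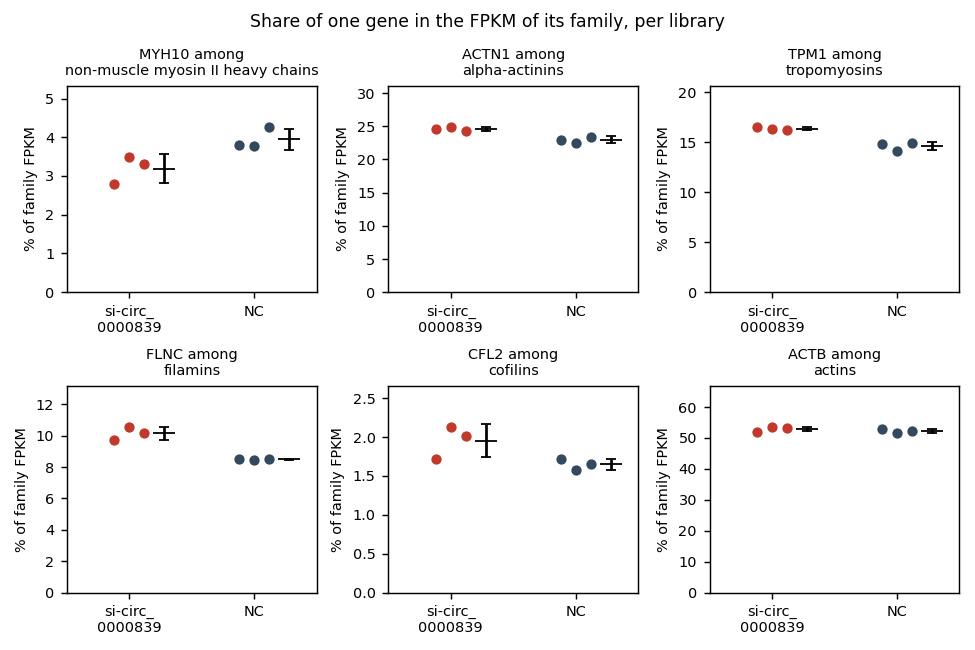
Share of 1 gene in the FPKM of its family (y axis, percent, starting at 0) in each library, 6 panels, si-circ_0000839 left and NC right, with the mean and SD as the black mark. The si-circ_0000839 points lie below the NC points for MYH10 and above them for ACTN1, TPM1, FLNC and CFL2, and overlap for ACTB. The panels were picked after the values were seen and are not typical of the 38 genes, of which only 10 did not overlap.

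The 44 genes varied between libraries of the same group along their GC content. Across the 44 genes, which share libraries and are not independent, the correlation of GC content with a library's deviation from the gene mean was 0.83, -0.66 and 0.33 in si-circ_0000839 replicates 1, 2 and 3. In NC replicates 1, 2 and 3 it was -0.59, 0.43 and -0.69. Replicates of both groups thus ran in opposite directions. GC content correlated with the log2 change itself at r = 0.46 (Spearman 0.45). The 11 genes of lowest GC content had a mean difference of -0.05 (log2) and the 11 of highest GC content 0.07. Among all tested genes, the 2668 of lowest GC content had -0.05 and the 2668 of highest GC content 0.02, so the pattern was not limited to the 44. With a trend on GC content and length removed from each library, 0 of 44 passed, beside 2.40% of all genes tested, and the smallest limma adjusted p was 0.0707, for CALD1. The part of GC content in the other differences was not tested.

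**Figure D4:**
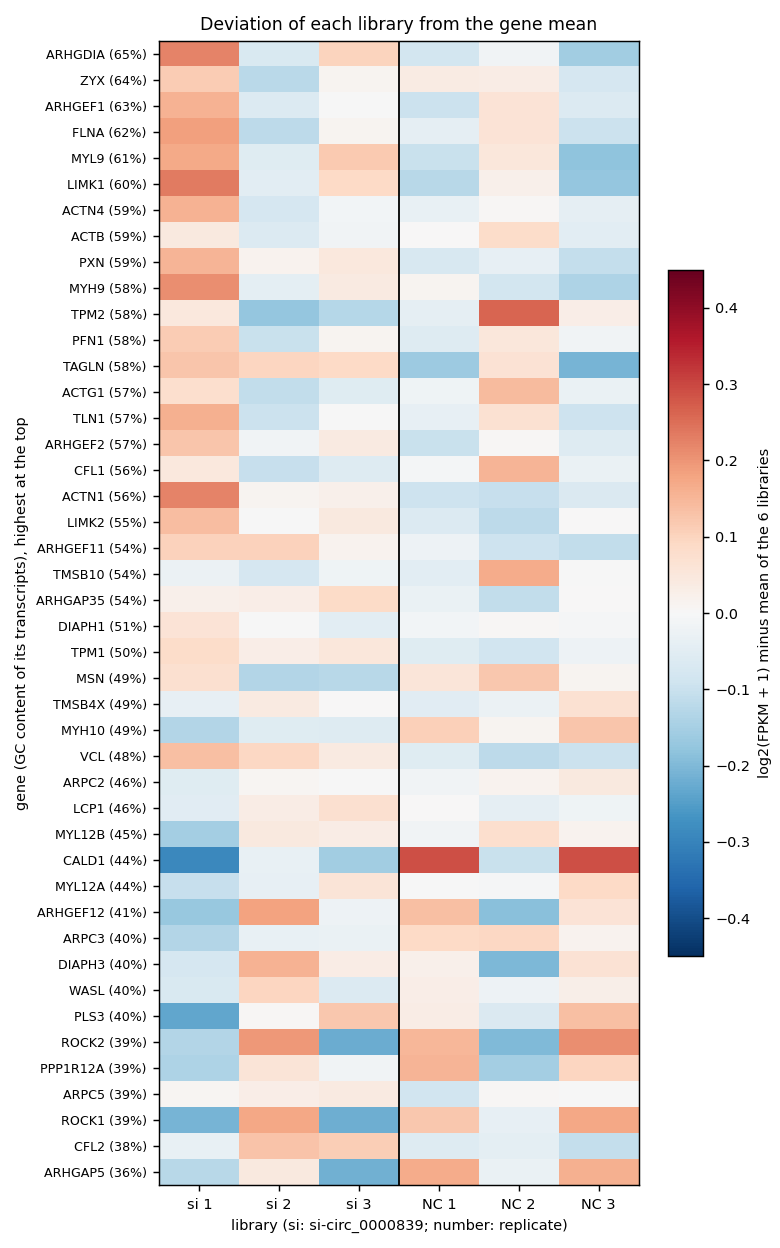
Deviation of log2(FPKM + 1) from the mean of the 6 libraries (colour) for each of the 44 genes (rows, highest GC content at the top) in each library (columns, si-circ_0000839 left of the line, NC right). si-circ_0000839 replicate 1 and NC replicate 2 are higher in GC-rich genes, and si-circ_0000839 replicate 2, NC replicate 1 and NC replicate 3 lower.

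Of 80 further genes of the same pathway, 75 were tested and 0 passed, with 10 (13.3%) at an unadjusted p under 0.05, against 12.6% of all tested genes. FLNC, which encodes filamin C, was at 71.9, 63.9 and 67.1 FPKM after si-circ_0000839, against 53.1, 56.6 and 51.0 in NC. The groups did not overlap, at a fold of 1.26 and a limma adjusted p of 0.103, which was 0.0130 with voom on the recovered reads. TNS1, the adhesion protein tensin, was at 15.3, 13.0 and 14.8 FPKM after si-circ_0000839, against 11.3, 11 and 11.3 in NC. These did not overlap either, with a limma adjusted p of 0.108, which was 0.0332 with voom. MRTFA, an SRF coactivator that actin monomer binds, was at 7.78, 6.37 and 7.23 FPKM after si-circ_0000839, against 5.74, 6.21 and 5.58 in NC, without overlap and with a limma adjusted p of 0.273.

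Lower means were seen for RND3, a small GTPase that opposes RhoA signalling, at 6.63, 7.81 and 7.53 FPKM after si-circ_0000839, against 11.5, 8.30 and 9.95 in NC. These did not overlap, with a limma adjusted p of 0.194. FERMT2, the integrin activator kindlin-2, was at 3.02, 3.52 and 3.36 FPKM after si-circ_0000839, against 4.54, 3.71 and 4.71 in NC. These did not overlap. TWF1, the monomer-binding twinfilin, was at 13.5, 20.7 and 18.3 FPKM after si-circ_0000839, against 23.9, 20.6 and 24.6 in NC, with overlap. Limma adjusted p-values were 0.229 for FERMT2 and 0.261 for TWF1. RHOA was at 326, 310 and 312 FPKM after si-circ_0000839, against 305, 344 and 299 in NC, and SRF at 36.4, 31.8 and 32.1 against 30.8, 32.9 and 30.4. Both overlapped. Not tested, with means under 1 FPKM, were CDC42, DAAM1, MYH14, PPP1R12B and MRTFB. For CDC42 59.4% of exon bases are shared with other annotated genes, and how reads in shared bases were assigned is not given in the sources used here.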

How the data were processed

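RNA of 6 libraries, 3 per group, was compared. The authors deposited FPKM per gene with gene lengths and coordinates, per the file headers. Per the submitters' processing notes, HISAT2 2.0.5 was used together with featureCounts 1.5.0-p3, and the strand setting is not given in the sources used here. All 58735 genes had the coordinates of GENCODE release 29. FPKM times length gave whole reads for 100% of values, within 0.01.

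Groups were compared on log2(FPKM + 1), a pseudocount of 1, by limma 3.58.1 (R 4.3.3; two-sided, prior variance with a trend). Genes averaging 1 FPKM or more entered the fit, with Benjamini-Hochberg adjustment over 10674 genes and calls at an adjusted p under 0.05. Folds are ratios of mean FPKM. Values per library are given for genes at an unadjusted p under 0.05, the smallest p of each role and the 5 most abundant. They are also given for ACTN4, a close relative of ACTN1, and for the 3 smallest p per direction among the 80 further genes. RHOA, SRF and TMSB4XP8, a copy of TMSB4X, are shown per library as well. CFL2, PXN, ROCK1, FLNA and the family shares were named after their values were seen. The test was tried on simulated reads without a trend on GC content, unlike these libraries, so nothing is read from that trial here. The genes and lists were chosen with earlier results of these data known. With each gene's group mean subtracted, the deviations of same-numbered libraries correlated at -0.15, -0.29 and 0.15. Differently numbered libraries of the groups ran from -0.30 to 0.35, so replicate numbers were not taken to pair libraries. Marker levels are mean FPKM. A few thyroid and leukocyte marker genes are not reported here. The 19 alternatives are given in the closing section.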

Additional observations from a re-analysis of the deposited data

How the results depend on the processing

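None of the 44 genes was called under any of the 19 alternatives that tested it (the minimum of 5 FPKM left out ROCK1, ROCK2, ARHGEF12, ARHGAP5, PPP1R12A and DIAPH3), and their smallest limma adjusted p ran between 0.0707 and 0.544. With the replicate block 0 of the 44 were called and 35 of all genes. All genes called, 41 as reported, numbered 63 with quantile normalization, 4 with no filter, 68 at a minimum of 5 FPKM, 84 with voom on recovered reads, 256 with a GC and length trend removed, 123 with that trend and the replicate block, and 20 with si-circ_0000839 replicate 1 and also NC replicate 2 left out. Leaving out 1 library gave 20 to 37, and 0 of the 44 each time. The number of the 44 at an unadjusted p under 0.05, 5 as reported, was 8 after TPM rescaling (14.5% of all genes), 11 after quantile normalization (14.8%), 9 with no filter (7.59%), 2 with the replicate block (9.15%) and 12 with the trend removed (19.9%; 18.2% with the block). It was 10 with both named libraries left out (17.6%), and 0 to 9 leaving out 1 library, with 2 without NC replicate 1 (8.92%) or si-circ_0000839 replicate 3 (8.43%). Of the 80 further genes, 1 was called after TPM rescaling, 1 after quantile normalization, 2 with voom, 2 with the trend removed and 1 with the trend and block. These were FLNC, and TNS1 where there were 2. The median log2 change of the 44 genes was 0.0346 after TPM rescaling, 0.0350 after quantile normalization and 0.0390, over 38 of them, at a minimum of 5 FPKM, and -0.0055 with the trend removed, against 0.01 as reported. Leaving out 1 library gave 0.0034 to 0.0245. The cause was not tested.

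Uncalled log2 changes near 0 turned sign. After TPM rescaling ARHGEF12 was 0.0102 and ACTB 7.97e-05. After quantile normalization ARHGEF12 was 0.0074, DIAPH1 -0.0034, ACTB 0.0927, ACTG1 0.0313 and RHOA -0.0044. With voom TMSB4X was -0.0017, ZYX -0.0025 and RHOA -0.0041. With the trend removed, with or without the block, DIAPH1 was -0.0338, WASL 0.0364, ACTN4 -0.0108, FLNA -0.0103, ZYX -0.0096 and TLN1 -0.0216. With both libraries left out MYL12B was 0.0386, DIAPH1 -0.0167, PFN1 -0.0072, ACTN4 -0.0084 and ZYX -0.0341. Leaving out 1 library, the ranges were -0.103 to 0.0759 for ARHGEF12, -0.0869 to 0.0130 for MYL12B, -0.0212 to 0.0328 for DIAPH1, -0.0074 to 0.131 for DIAPH3, -0.0749 to 0.0067 for WASL, -0.0364 to 0.0707 for PFN1 and -0.0530 to 0.0128 for ACTB. They were -0.0193 to 0.0408 for TMSB4X, -0.0221 to 0.0947 for ACTN4, -0.0269 to 0.125 for FLNA, -0.151 to 0.0272 for PLS3, -0.0524 to 0.0651 for ZYX, -0.0287 to 0.0994 for TLN1 and -0.0354 to 0.0637 for RHOA. The edgeR and DESeq2 tests listed among the alternatives were not run. The table holds FPKM, and voom was the only test run on the recovered reads.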

Other observations

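Copies of the abundant genes were also counted. TMSB4XP8, a processed pseudogene of TMSB4X, was at 412, 442 and 419 FPKM after si-circ_0000839, against 428, 368 and 412 in NC. These FPKM rest on an annotated length of 135 bases, with 902 to 1174 reads per library. TMSB4X, at 1705 bases, had 17598 to 19970 reads per library, so the FPKM of the 2 do not compare their reads. For TMSB4XP8 the values are as follows. Its groups overlapped, with a limma adjusted p of 0.743. PFN1P1 averaged 11.3 FPKM after si-circ_0000839 and 10.3 in NC, and ACTBP2 1.55 and 1.07. How reads that match a gene and its copy were assigned is not given in the sources used here.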
